A study of Mus musculus with 32 samples.

Results

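The baseline transcriptome of the wild-type mouse hypothalamus on control diet was described from 7 of the 32 libraries of the series, those labelled wild type and control diet. The libraries came from 7 male C57BL/6NTac mice, wild-type littermates of hemizygous Gpr101 knockouts, killed at 149 days (6 mice) or 150 days (mouse 7). Until 7 weeks of age every mouse ate standard chow, and these mice are labelled control diet thereafter; they carried no deletion and received no further treatment named in the labels. Total RNA of the dissected hypothalamus was sequenced with a stranded paired-end protocol. No group was compared with another, so the values below are levels and the spread between these 7 mice, called mouse 1 to mouse 7 after the replicate numbers of the labels. The replicate numbers follow the rising numbers in the column names, and the labels give no meaning to that order.

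The hypothalamus sets feeding, energy use, body temperature, fluid balance and daily rhythm, and controls the pituitary. Much of this is done by small groups of neurons that each make their own neuropeptide, a short secreted protein cut from a larger precursor, which acts on receptors that are mostly coupled to G proteins. Because each group sits in a nucleus of limited extent, a bulk dissection mixes neurons of many nuclei with astrocytes, oligodendrocytes, microglia, vessels, the lining of the third ventricle and parts of the surrounding membranes. In bulk RNA, fewer cells of a type and less RNA per cell cannot be told apart.

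Each library held 26.9 to 30.7 M reads assigned to genes (median 27.7 M, mean 28.1 ± 1.29 M, SD, n = 7). Of 55401 gene identifiers, 35482 had a read in some library, 22615 had a read in all 7 and 15485 reached at least 1 CPM (1 read per megaread on genes) in all 7, of which 13769 were protein-coding and 317 were long intergenic non-coding genes. Protein-coding genes took 93.8 ± 0.0866% of the reads and the mitochondrial genome 4.55 ± 0.0857%. Correlations of log2 values between pairs of libraries lay between 0.9936 and 0.9967. The male label was matched by Ddx3y, a Y-linked helicase, at 66.5 ± 7.17 TPM, and by Xist, the RNA of the inactive X chromosome, at 0 to 11.2 normalized counts (reads divided by a library size factor).

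Levels per length are given as TPM (reads per base of exon, scaled to sum to 1 M in each library) so that genes can be compared. Spread is given as the coefficient of variation of the normalized count over the 7 mice (CV, the SD as a percentage of the mean) and as a counting-corrected CV, in which the variance that read counting alone gives is subtracted. A corrected CV of 0 means that the mice varied by no more than read counting does. The spread is described for 13329 genes with a mean normalized count of at least 100.

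The dissection carried the markers of hypothalamus. Otp and Nkx2-1, transcription factors that mark large parts of the hypothalamus, had 60.9 ± 4.66 TPM and 48.1 ± 7.64 TPM (SD, n = 7, as for all TPM values). Slc17a6, the vesicular glutamate transporter of hypothalamus and thalamus, had 173 ± 8.41 TPM, whereas Slc17a7, the transporter of cortex and hippocampus, had 1.93 ± 0.404 TPM. Of 35 transcription factors of hypothalamic nuclei, 33 reached at least 1 TPM in every library. The pituitary hormone genes Gh and Prl were at 0 to 20.8 and 0 to 11.4 normalized counts, and no pituitary marker reached a mean of 100.

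Apart from the mitochondrial genome, whose most abundant message mt-Co1 (a subunit of cytochrome oxidase) had 24409 TPM, the 20 most abundant features per length fell into a few kinds. Ubb, a ubiquitin gene, had 4467 ± 85.4 TPM. Bc1, a short neuronal RNA that represses translation at dendrites, had 10617 ± 1772 TPM. Meg3, a long non-coding RNA made from the maternal chromosome, had 1875 ± 82.9 TPM and the second highest read number after mt-Co1, with 297883 normalized counts on average.

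Several of the other abundant messages belong to glia or to secretion. Sparcl1, a secreted astrocyte protein that promotes synapses, had 2514 ± 60.4 TPM. Apoe, the lipid carrier of astrocytes, had 2362 ± 87.0 TPM, and Cst3, a secreted protease inhibitor, had 2015 ± 65.8 TPM. Cpe, the carboxypeptidase that trims peptide precursors, had 2061 ± 61.9 TPM, close to the translation factor Eef1a1 at 2377 ± 52.6 TPM. Nap1l5 had 2498 ± 50.3 TPM and Psap, the precursor of lysosomal saposins, had 1756 ± 32.9 TPM.

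The remaining 9 of the 20 were predicted genes, listed as Gm followed by a number. Of these, 7 lie within a short segment of chromosome 1 that is a nuclear copy of the mitochondrial genome and held 2.02 ± 0.0538% of all reads. For 4 of the 7 copies, Gm28437, Gm28661, Gm10222 and Gm28438, reads were compared with those of the mitochondrial original. They were close in number: mt-Co3 had 115791 reads per library on average and its copy Gm28437 had 116066. Over the 7 libraries the difference varied with an SD of 40.8 reads, against the 482 reads expected had each read been assigned to either gene at random. Nearly the same reads thus appear at both places for mt-Co3 and Gm28437. For mt-Nd3 (10024 reads on average) and Gm28438 (10767) the SD was 110.5 against 144.2 reads, so sharing is less clear there. The levels of the copies cannot be taken as those of nuclear messages. The other 3, Gm29216, Gm10925 and Gm28439, were not compared. The levels of Bc1, Gm23935 and Gm10736 rest on very short exon lengths, and a level per length is uncertain for such genes.

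Neuropeptide precursors were among the most abundant neuronal messages. Of 58 neuropeptide genes examined, 39 reached at least 1 TPM in all 7 libraries, and together the 58 had 6570 TPM, from 5822 in mouse 5 to 7251 in mouse 4. The 15 highest are plotted by mouse with the 15 highest peptide receptors.

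**Figure D1:**
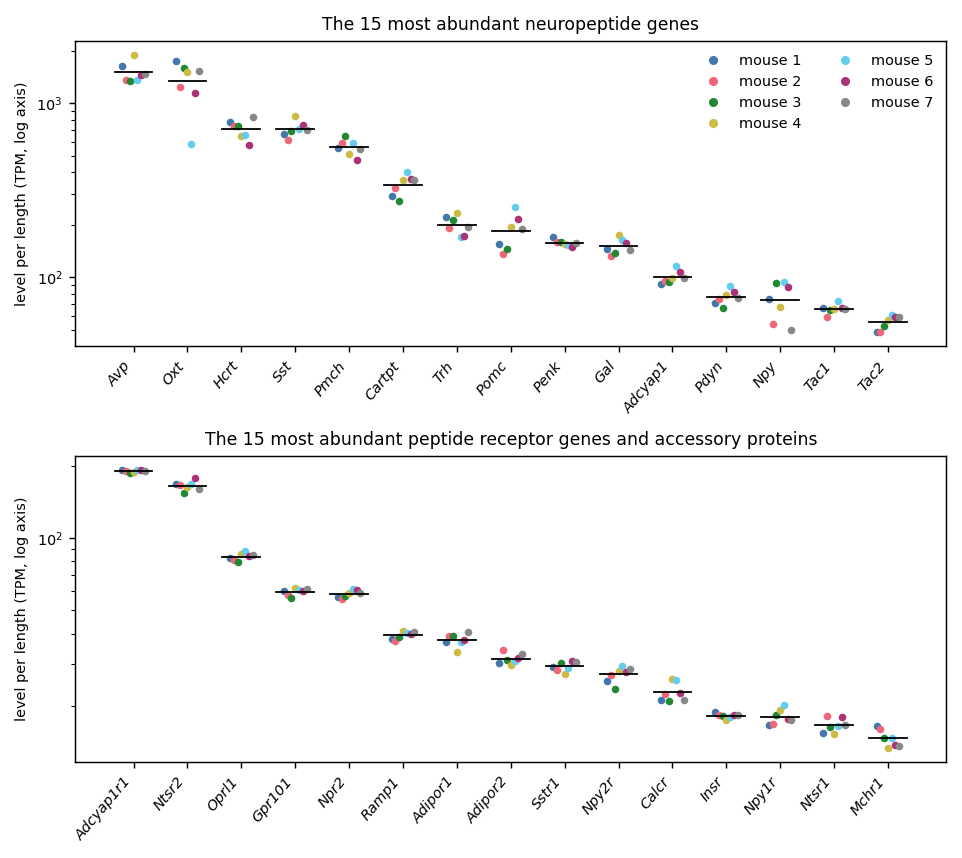
Level per length (TPM, log axis) of the 15 most abundant neuropeptide genes (top) and peptide receptor genes with their accessory proteins (bottom). Each point is 1 mouse and each bar the mean of 7 mice. Avp and Oxt stand highest among the peptides, Oxt and Npy are spread widely, and the receptor Adcyap1r1 has nearly the same level in all mice.

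Avp and Oxt, neighbours on chromosome 2 (GRCm38, 130580620 to 130582554 on the minus strand and 130576173 to 130577054 on the plus strand), encode vasopressin and oxytocin of the neurons that project to the posterior pituitary. Avp ranged from 6815 to 9789 normalized counts, with a median of 7338, and had 1503 ± 202 TPM. Oxt ranged from 2734 to 8260 normalized counts, with a median of 7165, and had 1332 ± 389 TPM. Mouse 5 was far below the others for Oxt, the next lowest mouse having 5374, but not for Avp, where mice 2, 3 and 5 had nearly the same count and mouse 4 was highest. The ranges of the 2 genes overlapped, and their order changed with the summary: the median TPM put Oxt first.

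In the lateral hypothalamus, Hcrt encodes the orexins, which sustain wakefulness, and Pmch encodes melanin-concentrating hormone. Hcrt ranged from 3776 to 5457 normalized counts, with a median of 4848, and had 710.5 ± 88.5 TPM. Pmch ranged from 3093 to 4283 normalized counts, with a median of 3644, and had 559 ± 56.9 TPM. Mouse 6 was lowest for both. Qrfp, a further lateral peptide, was far lower at 3.16 ± 0.558 TPM.

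Among the releasing and inhibiting factors that govern the anterior pituitary, Sst (somatostatin, which inhibits growth hormone) was highest. It ranged from 3869 to 5405 normalized counts, with a median of 4448, and had 709.7 ± 70.8 TPM. Trh, the thyrotropin-releasing hormone, had 199.6 ± 24.2 TPM, and Ghrh, the growth hormone-releasing hormone, had 22.4 ± 3.02 TPM. Crh, the stress hormone releasing factor, was low at 9.52 ± 2.88 TPM and varied more than most, from 55.7 to 150.4 normalized counts, with a median of 112. Gnrh1, made by a small number of scattered neurons, had 6.64 ± 1.35 TPM. Kiss1 had 0 reads in all 7 libraries; in the annotation used for lengths its exons are 100% covered by another gene on the same strand, so its count does not bear on its expression.

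The arcuate nucleus holds an appetite-promoting neuron type with Npy and Agrp and an appetite-suppressing type with Pomc and Cartpt. Pomc, the precursor of α-MSH, ranged from 1555 to 2898 normalized counts, with a median of 2197, and had 184 ± 41.7 TPM. Cartpt, which is also made in other nuclei, ranged from 3107 to 4482 normalized counts, with a median of 4063, and had 341 ± 45.0 TPM. For both genes mouse 5 was highest and mice 1, 2 and 3 were the lowest.

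Npy ranged from 248 to 463 normalized counts, with a median of 372, and had 74.3 ± 17.8 TPM. Agrp had 15.2 ± 1.88 TPM, with 114 to 165 normalized counts; 11.25% of its exon length is shared with another gene. Mouse 7 was lowest for both Npy and Agrp.

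Other peptides act as modulators in many nuclei. Penk, the enkephalin precursor, had 158 ± 6.66 TPM with a corrected CV of 3.86%, Gal (galanin) had 151 ± 15.1 TPM and Adcyap1 (PACAP) had 101 ± 8.75 TPM. Pdyn (dynorphin) had 77.3 ± 7.42 TPM, Tac1 (substance P) 66.1 ± 4.10 TPM and Tac2 (neurokinin B) 55.1 ± 5.24 TPM. Vip, the peptide of the core of the suprachiasmatic nucleus, had the widest relative spread of the 27 neuropeptides with a mean of at least 100: it ranged from 93.2 to 446 normalized counts, with a median of 187, a corrected CV of 54.9%. Mouse 4 was highest and mouse 5 lowest.

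Over those 27 genes the median corrected CV was 10.3%, against 3.68% over all 13329 genes. Of the 27, 3 exceeded 25%, Vip, Oxt (29.5%) and Crh (28.7%), whereas 115 of the 13329 genes (0.863%) did, and Nucb2 (nesfatin-1) was lowest at 0. Other peptides with wide spread were Npy at 23.4% and Pomc at 22.3%.

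Genes of the machinery that makes and packs peptides had a list level with an SD of 0.05 on the log2 scale for granins and 0.02 for processing enzymes. Of the granins, which form the secretory granule, Pcsk1n had 1454 ± 43.1 TPM, Scg2 1374 ± 35.9 TPM and Scg5 455 ± 13.9 TPM; corrected CVs ran from 1.65% for Scg3 to 11.5% for Chga. Among 12 processing enzymes Cpe held 2061 of the 2436 TPM, with a median of 26.5 TPM over the list, followed by the amidating enzyme Pam at 109 ± 4.92 TPM and the convertase Pcsk2 at 84.4 ± 2.01 TPM. The convertase Pcsk6 had a corrected CV of 0 and Prcp, a carboxypeptidase that degrades α-MSH, the widest at 9.44%.

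Receptors and their accessory proteins summed to 1136 TPM, against 6570 TPM for the precursors, but the medians per gene were nearly the same, 6.93 and 6.97 TPM, since a few precursors hold most of the larger sum. Of 73 receptor genes and accessory proteins, 63 reached at least 1 TPM in all 7 libraries, and the 53 with a mean of at least 100 had a median corrected CV of 5.94%. None exceeded 25%; the widest was Brs3, an orphan receptor for which loss causes obesity in mice, at 21.7%.

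Gpr101, the X-linked orphan receptor that the series is about (ENSMUSG00000036357), lies on the minus strand of chromosome X at 57496668 to 57503757 in GRCm38 and was the fourth highest of the 73. It ranged from 2692 to 2998 normalized counts, with a median of 2847, and had 59.7 ± 2.03 TPM. The ratio of the highest to the lowest mouse was 1.11, and the corrected CV was 3.15%.

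The highest receptor was Adcyap1r1, the PACAP receptor, at 190.1 ± 2.17 TPM. It ranged from 10866 to 11117 normalized counts, with a median of 11052, a CV of 0.828% against the 0.952% that read counting gives, and was among the 15 least variable of all genes with a mean of at least 1000. Ntsr2, an astrocytic neurotensin receptor, had 165 ± 7.39 TPM, well above the neuronal Ntsr1 at 16.6 ± 1.11 TPM. Oprl1, the nociceptin receptor, had 83.7 ± 2.93 TPM and Npr2, the receptor of C-type natriuretic peptide, 58.6 ± 2.07 TPM.

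Receptors of metabolic hormones followed. Insr, the insulin receptor, had 18.2 ± 0.386 TPM with a corrected CV of 0, while Lepr, the leptin receptor, had 3.28 ± 0.634 TPM and a corrected CV of 18.1%. The adiponectin receptors Adipor1 and Adipor2 had 37.7 ± 2.22 TPM and 31.4 ± 1.55 TPM, and Ramp1, an accessory protein of calcitonin-family receptors, 39.4 ± 1.37 TPM. Calcr, the calcitonin receptor, had 22.8 ± 2.09 TPM.

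Of the receptors of feeding peptides, Npy2r had 27.0 ± 1.94 TPM, Npy1r 18.0 ± 1.29 TPM and Mchr1, the receptor of melanin-concentrating hormone, 14.6 ± 1.22 TPM. Mc3r and Mc4r, the central melanocortin receptors, had 7.83 ± 1.26 TPM and 3.00 ± 0.372 TPM, and Glp1r had 10.8 ± 1.01 TPM. The somatostatin receptor Sstr1 had 29.2 ± 1.31 TPM and a corrected CV of 0.

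Receptors for steroid and thyroid hormones were all at or above 1 TPM in every library. The thyroid hormone receptor Thra had 299 ± 9.15 TPM, the haem receptor and clock repressor Nr1d1 60.7 ± 4.95 TPM and the glucocorticoid receptor Nr3c1 42.9 ± 2.29 TPM. Pgr, the progesterone receptor, had a corrected CV of 0 and Esr1, an oestrogen receptor, the widest at 10.6%.

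The 14 genes of amino acid transmitters had 2026 TPM together, against 559 TPM for 30 monoamine genes. Slc6a11, a glial GABA transporter, had 550.5 ± 16.7 TPM, Slc1a2, the astrocytic glutamate transporter, 293 ± 19.5 TPM and Gad2, a GABA-synthesizing enzyme, 235 ± 17.4 TPM. Gad2 was the most variable of that list at 7.66%. Of the monoamine genes, the degrading enzymes Maob and Maoa had 61.0 ± 4.41 TPM and 54.4 ± 2.34 TPM and the histamine receptor Hrh3 53.0 ± 2.35 TPM. Ddc, the decarboxylase of dopamine and serotonin synthesis, had a corrected CV of 0.

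The dopamine transporter Slc6a3, in contrast, was the most variable monoamine gene. It ranged from 168 to 1073 normalized counts, with a median of 593, a corrected CV of 65.1%. Mice 3, 4 and 5 had 261, 168 and 169, and the other 4 mice had at least 593, with 1073 in mouse 2. Of 9 markers of midbrain dopamine neurons, Slc6a3 among them, listed after these values were seen, 6 had a mean of at least 100. Their list level was 8.74 in mouse 4, 8.91 in mouse 5 and 9.15 in mouse 3, and 9.53 to 9.82 in the others. The members did not all follow that order: Ddc was lowest in mouse 1 and the vesicular monoamine transporter Slc18a2 in mouse 3. The values of Pitx3 and Nr4a2, also among the markers, are not given here, and Nr4a2 is in the list of immediate early genes too. Chrna6, a nicotinic receptor subunit of those neurons, had 53.5 and 86.8 in mice 4 and 5, 109 in mouse 3 and at least 166 in the others. En1 and Foxa2, transcription factors of the midbrain with means under 100, were at 4.57 to 52.0 and 0.990 to 22.4, each lowest in mice 4 and 5. Th, the rate-limiting enzyme of dopamine synthesis, which hypothalamic neurons also make, spread less, from 677 to 1146 normalized counts, with a median of 1050. Thalamic Tcf7l2, described below, was lowest in the same mice 4 and 5. The level of the thalamus and habenula list was 9.50 and 9.44 in mice 4 and 5. It did not follow Slc6a3 in all mice, with 9.71 in mouse 3 and 9.53 in mouse 6. What else was dissected with the tissue is not recorded in the labels, and its part in the spread of Slc6a3 was not tested.

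Factors that mark single nuclei spread more between mice than most genes. Over 29 of them with a mean of at least 100 the median corrected CV was 11.2%. Otp, Nkx2-1 and Fezf1 were the highest, the last at 29.5 ± 3.80 TPM. Lhx9 was the most variable at 31.0%, followed by Nkx2-4 at 22.8% and Nr5a1, which marks the ventromedial nucleus, at 22.7%; Nkx2-2 had a corrected CV of 0. Mouse 5 had the highest count of Nr5a1 (608 against a median of 377) and of Nkx2-1 (1524 against 1168). The same mouse was lowest for Oxt, Crh and Vip and highest for Pomc and for the level of tanycyte markers given below; whether these belong together was not tested.

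Markers of neighbouring brain regions ranged from low to high. A mean of at least 100 was reached by 5 of 12 genes of cortex and hippocampus. For striatum it was 8 of 10, and for thalamus and habenula 10 of 12. Over all 55401 gene identifiers it was 13329. Not all members are particular to their region: Tac1 and Tac2 are also in the list of neuropeptides, and Lef1 in that of hypothalamic nuclei. The counts therefore do not measure how much neighbouring tissue was present. In the list of cortex and hippocampus, Tbr1 and Neurod6, factors of cortical excitatory neurons, had 1.84 ± 0.632 TPM and 2.60 ± 1.01 TPM. Camk2n1 at 316 TPM, Nrgn at 226 TPM and Prox1 at 15.2 TPM led that list; Bcl11b had its widest corrected CV, 10.2%, and Lamp5 its lowest, 0.

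The list of striatal genes was led by Adcy5 at 93.0 TPM, Pde1b at 83.5 TPM and Tac1, and the dopamine receptor Drd1 had 4.41 ± 0.825 TPM, with the widest corrected CV of 17.4%. In the list of thalamus and habenula, which the calcium-binding protein Calb2 led at 491 ± 43.5 TPM, Tcf7l2, a factor of thalamic neurons, was the most variable. It ranged from 379 to 962 normalized counts, with a median of 556, and was highest in mouse 2 and lowest in mice 4 and 5. Zic1, in the same list at 28.1 TPM, had a corrected CV of 26.0% and was lowest in mouse 5.

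To compare the mice over whole groups of genes, the level of a list was taken as the mean over its members, with a mean normalized count of at least 100, of the log2(normalized count + 1). The SD of this level between the mice is plotted list by list.

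Markers of the main brain cell types were nearly the same in all mice. For neurons, Uchl1 had 1328 ± 37.6 TPM, Gap43, a growth cone protein, 942 ± 28.8 TPM and Tubb3, a neuronal tubulin, 589 ± 21.5 TPM; corrected CVs ran from 2.03% for Stmn2 to 6.01% for Nefm. The SD of the list level was 0.04 on the log2 scale for neurons, 0.04 for astrocytes, 0.02 for microglia, 0.05 for oligodendrocyte precursors, 0.06 for endothelium and 0.08 for oligodendrocytes. A list of 20 reference genes had 0.02.

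Astrocytes were led by Aldoc, a glycolytic enzyme, at 833 ± 19.4 TPM, Agt (angiotensinogen) at 330.0 TPM and S100b at 291 TPM. Their least variable marker was the glutamate transporter Slc1a3 at 2.09% and the most variable the filament protein Gfap at 15.5%. Gfap ranged from 5251 to 7894 normalized counts, with a median of 6089, with mouse 6 highest and mice 1, 2 and 3 lowest.

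Oligodendrocyte markers included the myelin gene Mbp at 724 ± 46.6 TPM and Cnp at 290.4 TPM, which had their lowest corrected CV of 2.28%; Mog had the highest, 10.3%. Their precursors were led by Olig1 at 181 TPM, Bcas1 at 103 TPM and Olig2 at 52.0 TPM, with corrected CVs from 2.41% for Pdgfra to 11.4% for C1ql1. For microglia, Ctss, a lysosomal protease, had 127 TPM, and the complement genes C1qa and C1qb 96.9 TPM and 81.5 TPM. Cx3cr1, the fractalkine receptor, had a corrected CV of 0 and Aif1 the widest, 13.7%.

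Vessels were marked by the tight junction protein Cldn5 at 96.5 TPM, Itm2a at 87.8 TPM and the glucose transporter Slc2a1 at 68.0 TPM; corrected CVs of the endothelial list ran from 4.65% for Slco1a4 to 13.6% for Cdh5. Of the mural cell markers, Vtn had 78.5 TPM, Rgs5, a marker of pericytes, 52.5 TPM and Pdgfrb 15.1 TPM. Vtn ranged from 1221 to 2134 normalized counts, with a median of 1278, and only mouse 3 was above 1376. Rgs5 had the lowest corrected CV of that list, 3.76%.

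The lining of the third ventricle varied more. Tanycytes, the ventricular cells that sense blood metabolites, were led by Vim at 26.8 TPM, Col23a1 at 24.6 TPM and the orphan receptor Gpr50 at 23.2 TPM, and their list level had an SD of 0.17. Mouse 5 was highest in 7 of the 10 tanycyte genes with a mean of at least 100, against 15.8% of all 13329 genes. Corrected CVs ran from 7.88% for the deiodinase Dio2 to 33.9% for Fndc3c1. Ciliated ependymal cells were led by Hdc, the histamine-synthesizing enzyme, which hypothalamic neurons also make, at 31.2 TPM, Rsph1 at 29.2 TPM and Foxj1, the factor of motile cilia, at 27.2 TPM. Their list level had an SD of 0.15, and corrected CVs ran from 9.97% for Rsph1 to 19.5% for Cfap126. Mouse 4 was highest in 7 of 9 ependymal genes, against 13.6% of all 13329 genes.

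Globins showed residual blood. Hbb-bs had 729 ± 121 TPM, Hba-a1 642 ± 86.3 TPM and Hba-a2 385 ± 51.4 TPM; the copies of each globin are nearly identical, so how their reads were divided is uncertain. Hbb-bs ranged from 3380 to 5874 normalized counts, with a median of 4974, with the widest corrected CV of the list at 16.4%, and mouse 2 was lowest and mouse 7 highest. Car2, which oligodendrocytes also express, was the least variable at 3.06%. The SD of the list level was 0.17, and 0.10 without mouse 2.

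Choroid plexus was nearly absent: Ttr, its most abundant message, had 11.2 to 87.9 normalized counts and 3.65 TPM, highest in mouse 3. Clic6 led the list at 19.7 TPM with its widest corrected CV of 10.3%, followed by Prlr, the prolactin receptor, at 8.26 TPM with its lowest, 3.35%. Of the pituitary list, Cga, the common subunit of glycoprotein hormones, was highest at 4.89 TPM, with 2.09 to 92.9 normalized counts, and Tbx19 and Tshb had 1.99 TPM and 1.49 TPM.

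Genes of the circadian clock were steady, with an SD of the list level of 0.02 over 18 genes. Tef had 111 TPM, Nr1d2 77.0 TPM and Nr1d1 60.7 TPM; Cry2 was least variable at 1.25%, and Per1, which is also induced by acute stimuli, most variable at 11.1%. Dbp, whose level oscillates strongly over the day, ranged from 929 to 1154 normalized counts, with a median of 1042.

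Of 15 glucocorticoid-responsive genes, Mt1, a metallothionein, had 271 TPM, Ddit4 67.5 TPM and Tsc22d3 44.1 TPM. Fkbp5, a chaperone of the glucocorticoid receptor, was least variable at 4.47%, and the kinase Sgk1 most variable at 34.6%. Sgk1 ranged from 524 to 1393 normalized counts, with a median of 714, highest in mouse 2 and lowest in mouse 6.

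Genes of gliosis were led by Gfap, Serpina3n at 74.1 TPM and the complement gene C4b at 31.1 TPM, with corrected CVs from 6.15% for C4b to 20.8% for Cd44 and an SD of the list level of 0.16. The interferon and antigen presentation genes were led by B2m at 233 TPM, H2-D1 at 86.5 TPM and H2-K1 at 43.1 TPM, the last with the lowest corrected CV, 3.65%. Bst2, an interferon-induced membrane protein, had the widest, 34.8%, with 215 in mouse 3 against a median of 103. Without mouse 3 the SD of that list level was 0.04 in place of 0.11. Mouse 3 also had the highest level of meningeal markers, as described below; their part in this was not tested.

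Over all 13329 genes the median CV was 5.18%, of which read counting gives 3.38%, and the median corrected CV was 3.68%. The 95th percentile was 12.4%, and 1195 genes (8.97%) exceeded 10%. The corrected CV was 0 for 1642 genes (12.3%). Its median fell with level, from 7.24% for genes with 100 to 300 normalized counts to 2.42% above 10000. In all, 115 genes (0.863%) exceeded 25%; Ddr2 (25.1%) and Gem (25.2%) lay just inside that limit, and Thbs1 (24.8%) and Myoc (24.98%) just outside.

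**Figure D2:**
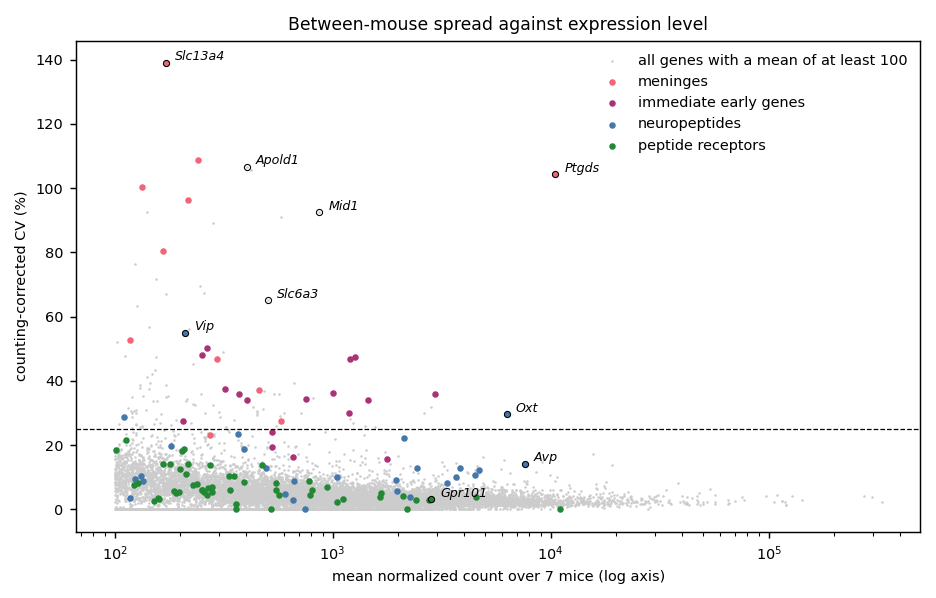
Counting-corrected CV (%) against mean normalized count (log axis) for 13329 genes, each a grey point, over 7 mice. The dashed line marks 25%; markers of meninges and immediate early genes lie mostly above it, peptide receptors all below it, and Vip and Oxt above it.

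The variable genes were not spread evenly over the mice. Mouse 3 had the highest count for 65 of the 115 and mouse 2 for 32, whereas over all 13329 genes these mice were highest for 13.7% and 16.8%. Without mouse 3 the number of genes above 25% was 64, and 5 of the 15 most variable genes remained among the 15. The first principal component of the log2 values held 26.6% of the variance, with mouse 3 at one end, and the second held 23.0%, with mice 2 and 1 at one end.

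Of the 15 most variable genes with a name, 10 were high in mouse 3 alone. Ptgds, which makes prostaglandin D2 in meninges and oligodendrocytes, ranged from 5791 to 35360 normalized counts, with a median of 6385; the other 6 mice lay between 5791 and 7047. Slc13a4, a sulphate transporter of the pia, had the widest corrected CV at 139%: it had 716 in mouse 3 and 63.4 to 111 in the others. The 2 sets of values did not overlap for either gene.

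Others of the 10 were the matrix proteins Fmod (109%) and Ogn (100.5%), the GABA transporter Slc6a13 (96.3%), the amino acid transporter Slc6a20a (89.0%) and the retinoic acid-synthesizing enzyme Aldh1a2 (80.4%). The last 3 were Itih2 (92.6%), Ranbp3l (76.4%) and the growth factor Bmp6 (71.7%). Without mouse 3 their corrected CVs lay between 4.57% for Fmod and 17.2% for Slc13a4.

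Of 14 markers of the meninges, 11 had a mean of at least 100. Of these, 10 exceeded 25%, against 0.863% of all 13329 genes, and all 11 were highest in mouse 3, against 13.7%. The list was chosen with earlier results known. It holds Ptgds, Slc13a4, Fmod, Ogn, Slc6a13 and Aldh1a2, named above as most variable, so these counts in part restate how genes were picked. The level of the list was 9.70 in mouse 3 and 7.69 to 8.17 in the other mice, and its SD was 0.71 with mouse 3 and 0.17 without it. The collagen gene Col1a1 varied least of them, from 200.1 to 401 normalized counts, with a median of 256. The part of membranes left on the tissue in these values was not tested.

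**Figure D3:**
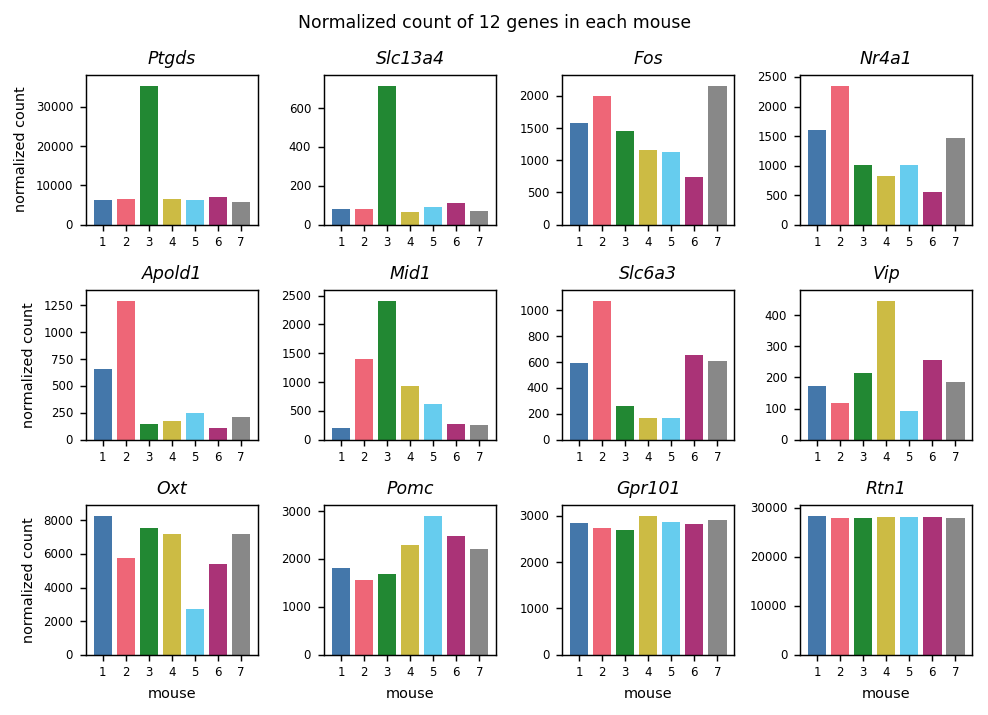
Normalized count of 12 genes in each of 7 mice, each bar 1 mouse, with axes from 0. Ptgds and Slc13a4 are high in mouse 3 alone, Apold1 is highest in mouse 2, Fos and Nr4a1 are lowest in mouse 6, Oxt is lowest in mouse 5, and Gpr101 and Rtn1 are nearly level.

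Immediate early genes, which neurons and vessels switch on within minutes of a stimulus, formed the other variable group. Many carry the cAMP response element, TGACGTCA, or its core, TGACG, before their start, the site bound by CREB. Windows of 250 bases before the start (RefSeq, GRCm38.p6) were examined for 14 of the 18 listed genes. The rest of the list, Egr1 among them, was left out, so the comparison with all genes is not strictly like for like. Of the 14, 12 (85.7%) held the core on either strand in at least 1 window, against 19.79% of 27025 genes counted per gene. By window it was 14 of 18, against 17.77% of all 32851 windows of that length. The full element occurred in 2 of the 14 genes, Dusp1 and Btg2, against 1.769% of the 27025 genes counted per gene. It was in 1.546% of all windows. The windows of Nr4a1, Nr4a3 and Dusp1 are shown because these 3 genes had corrected CVs above 25% and hold several cores; capitals mark TGACG or its reverse complement CGTCA, which overlap where the full element occurs.
Nr4a1, chr15:101266596-101266845, plus strand: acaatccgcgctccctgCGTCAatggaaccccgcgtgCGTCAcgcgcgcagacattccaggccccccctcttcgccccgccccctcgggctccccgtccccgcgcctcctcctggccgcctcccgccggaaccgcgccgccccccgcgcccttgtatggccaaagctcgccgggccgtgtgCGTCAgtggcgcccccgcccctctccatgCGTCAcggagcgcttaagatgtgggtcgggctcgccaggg
Nr4a3, chr4:48045055-48045304, plus strand: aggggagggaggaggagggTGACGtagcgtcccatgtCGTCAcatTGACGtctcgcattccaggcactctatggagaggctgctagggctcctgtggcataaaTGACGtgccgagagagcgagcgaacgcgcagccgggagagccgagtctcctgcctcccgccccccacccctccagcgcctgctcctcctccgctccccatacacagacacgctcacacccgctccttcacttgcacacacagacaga
Dusp1, chr17:26508473-26508722, minus strand: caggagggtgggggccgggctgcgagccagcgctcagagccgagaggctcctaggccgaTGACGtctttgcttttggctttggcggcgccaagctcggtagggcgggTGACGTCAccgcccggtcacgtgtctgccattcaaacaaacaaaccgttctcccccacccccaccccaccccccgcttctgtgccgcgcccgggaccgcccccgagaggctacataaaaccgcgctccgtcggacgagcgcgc
Nr4a1 and Nr4a3 hold 4 cores each, and Dusp1 holds 3, among them the full element starting 143 bases before the start. A match is a description of the letters and does not show binding.

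Of the 18 genes, 17 had a mean of at least 100, and 13 of these exceeded 25%, against 0.863% of all 13329 genes. Egr1, a zinc finger factor, had 75.0 ± 27.2 TPM, Fos 70.7 ± 24.4 TPM and Jun 63.6 ± 10.4 TPM. Fos ranged from 746 to 2159 normalized counts, with a median of 1461, with mice 7 and 2 highest and mouse 6 lowest. Nr4a1, an orphan nuclear receptor, ranged from 560.3 to 2353 normalized counts, with a median of 1012, with mouse 2 highest and mouse 6 lowest.

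Nr4a3 ranged from 238 to 544 normalized counts, with a median of 366, and Dusp1, a phosphatase that ends MAP kinase signals, from 615 to 1678 normalized counts, with a median of 915. Egr3 had the widest corrected CV at 50.2% and Jun the narrowest at 15.8%. Mouse 2 was highest for 12 of the 17 genes, against 16.8% of all 13329 genes. Mouse 6 was lowest for 12 of the 17, and the share over all genes was not counted for this. The level of the list ran from 8.72 in mouse 6 to 9.92 in mouse 2, with a median of 9.26 and an SD of 0.42.

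Not all followed that order. Npas4, which responds selectively to neuronal activity, had 412 in mouse 2, its lowest, and 683 in mouse 4. Arc, a synaptic gene, was highest in mouse 7 at 876. Of the 15 most variable genes, 3 outside the list are known to be induced fast as well. Apold1, an endothelial early gene, and Ccn1, a secreted matrix protein, had corrected CVs of 107% and 90.9%. Apold1 ranged from 111 to 1293 normalized counts, with a median of 211, and Ccn1 from 166 to 1663 normalized counts, with a median of 426; mice 2 and 1 were the highest for both. Zfp36, which shortens the life of messages, ranged from 97.2 to 583 normalized counts, with a median of 194, also highest in mice 2 and 1.

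The other 2 of the 15 were Mid1, an X-linked ubiquitin ligase gene that crosses the border of the pseudoautosomal region in this strain (169685199 to 170005736), and Mid1-ps1, a copy on chromosome Y (90753057 to 90763485). Mid1 ranged from 205 to 2409 normalized counts, with a median of 624, and Mid1-ps1 from 58.9 to 1294 normalized counts, with a median of 294. Both were highest in mouse 3, then mouse 2, and lowest in mouse 1. As the copies are nearly identical, how their reads were divided is uncertain.

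Of 4 Y-linked genes, Eif2s3y, a translation factor gene, exceeded 25%. It ranged from 738 to 1801 normalized counts, with a median of 1140, and was highest in mouse 2 and lowest in mouse 1. Uty was the steadiest at 5.60% and Kdm5d had 10.5 TPM. Of the genes of the mitochondrial genome, mt-Co2 was least variable at 1.42% and mt-Nd3 most variable at 10.7%.

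At the other end, the 15 least variable named genes with a mean of at least 1000 had CVs from 0.505% for Ppp4r3b, a phosphatase subunit, to 1.02% for Calm2, a calmodulin gene. Rtn1, a reticulon of neurons, ranged from 27880 to 28295 normalized counts, with a median of 28002, a CV of 0.535%, below the 0.597% that counting gives. Others were Samd14, Zfp706, Glo1, Tmem59l, the cohesin subunit Rad21, Tsc22d1, Plekhb2 and the demethylase-like gene Jmjd1c, each at or below the CV that counting gives. The secreted chaperone Clu was slightly above it, with a corrected CV of 0.593%. These are the lowest of many CVs, each from 7 mice, and they describe these libraries only.

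Of the reference genes in common use, Sdha, a subunit of succinate dehydrogenase, was the steadiest with a corrected CV of 0.814%. Gapdh had 1193 ± 17.1 TPM and 1.24%, and Hprt 1.54%, while Actb had 4.55%, B2m 8.10% and Rpl13a, 35.38% of whose exon length is shared with another gene, 10.1%.

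Whether genes of 1 cell type or programme rose and fell together over the mice was examined for 12 gene pairs. The pairs were chosen with earlier results of these data known, so the p-values are descriptive and are not those of tests planned beforehand. Exact permutation tests over the 5040 pairings were used, with Benjamini-Hochberg adjustment over the 12. For 6 of the 12 pairs Pearson's r had an adjusted p of at most 0.05 (exact, two-sided). No Spearman correlation did: the lowest adjusted p was 0.0683 (exact).

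**Figure D4:**
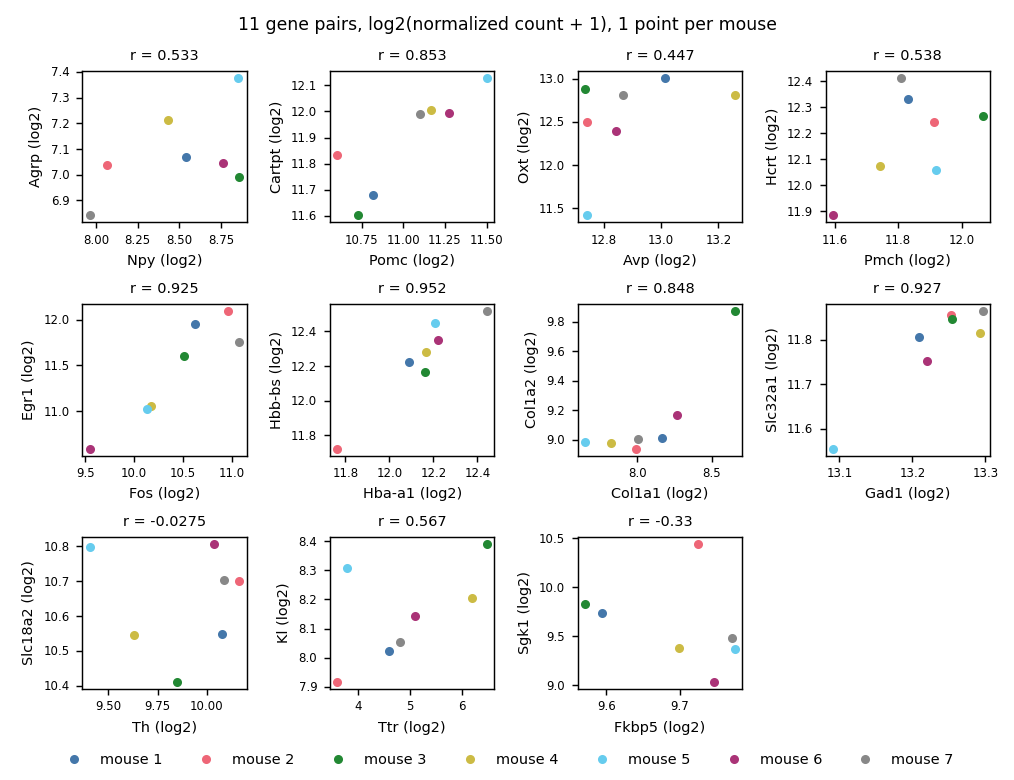
Of the 12 gene pairs, 11 are plotted, each axis the log2(normalized count + 1) of a gene and each point 1 of 7 mice, with Pearson's r above each panel. Points for Fos with Egr1 and Pomc with Cartpt rise from left to right, mouse 3 stands apart for the collagens, and mouse 5 for Gad1 with Slc32a1.

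Fos and Egr1 had r = 0.925 (adjusted p = 0.0143, exact permutation test; rho = 0.893, adjusted p = 0.0683), and 0.966 without the 2 mice farthest from the median of Fos. Pomc and Cartpt had r = 0.853 (adjusted p = 0.0371, exact; rho = 0.857, adjusted p = 0.0683), and 0.964 without the 2 farthest mice. For both pairs the sign and size held without the extreme mice.

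The globins Hba-a1 and Hbb-bs had r = 0.952 (adjusted p = 0.0143, exact; rho = 0.929, adjusted p = 0.0683), and 0.693 without the 2 farthest mice, 2 and 7. The chains of collagen I, Col1a1 and Col1a2, had r = 0.848 (adjusted p = 0.0349, exact; rho = 0.857, adjusted p = 0.0683), which was 0.642 without mouse 3. Gad1 and Slc32a1, which make and load GABA, had r = 0.927 (adjusted p = 0.0371, exact; rho = 0.821, adjusted p = 0.0683), which was 0.462 without the 2 farthest mice and so rested on mice 5 and 7.

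The other 6 pairs did not pass. Avp and Oxt had r = 0.447 (adjusted p = 0.339, exact), Npy and Agrp 0.533 (adjusted p = 0.287, exact) and Pmch and Hcrt 0.538 (adjusted p = 0.287, exact). Th and Slc18a2 had r = -0.0275 (adjusted p = 0.949, exact), Ttr and Kl 0.567 (adjusted p = 0.287, exact), and Fkbp5 and Sgk1 -0.330 (adjusted p = 0.527, exact). With 7 mice a moderate correlation cannot be told from none. Leaving out a mouse lowered the number of pairs that passed to 2 without mouse 1 and to 1 without mouse 3, 6 or 7, and it was 5 without mouse 2, 4 or 5.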

How the data were processed

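RNA of the hypothalamus of 7 wild-type male mice on control diet was analysed. The authors deposited log2 values per gene, 1 table per library. Undoing the log and the size factor of the library gave whole reads for 100% of values (tolerance 1e-06; 0 is listed as the log2 of 0.1), and these reads were used for all levels and spreads. Per the submitters' processing notes, reads were handled with STAR 2.7.6a, Trim Galore 0.6.2, FastQC and cutadapt 2.10, and with R 4.0.2 and DESeq2 1.28.1, on GRCm38. How reads were counted, with which strand setting and annotation, is not given in the sources used here. Reads counted at more than 1 gene, as appears for mt-Co3 and its copy Gm28437, inflate such genes. The 25 value columns of other groups were not used.

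Symbols, coordinates and exon lengths came from GENCODE M21 (GRCm38); 55141 of 55401 identifiers matched, and the others held 0.00936% of reads. TPM was computed from reads and summed exon length, and the counting variance from Poisson sampling. The members, lists and gene pairs were chosen with earlier results of these data known. Genes named in the text are the 20 highest in TPM outside the mitochondrial genome, the 15 most and the 15 least variable named genes (mean of at least 100 and 1000), and for each list the 3 highest and the most and least variable members (some of these, and 1 of the 12 gene pairs, are not reported here), beside list members whose role is described. Chrna6, En1, Foxa2 and the midbrain list were added after values were seen. Pairs were tested by exact permutation, and the alternatives are given in the closing section. Counting intervals cover counting error only. The libraries are from separately labelled mice, and no batch is named apart from 1 day of age. Scripts were tested on simulated data (Python 3.11.15, numpy 2.4.6, pandas 2.3.3, scipy 1.17.1, matplotlib 3.10.9).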

Additional observations from a re-analysis of the deposited data

Results flagged for a closer look

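Of 248 values checked, 24 (9.68%) had 1 mouse standing apart from the other 6, in that its gap to the nearest was above Dixon's 95% critical value for 7 samples, as a share of their range. Chance flags about 1 in 20 groups; over all 13329 genes it was 730 (5.48%), with mouse 3 high in 126 of them. The values checked include the 15 most variable genes, which account for 10 of the 24, so those flags restate how the genes were chosen; without the 15 it was 14 of 233 (6.01%). Mouse 3 was the high one for 17 of the 24, and for 7 of these 14, so that its share is in large part set by the choice. It had normalized counts of 35360 for Ptgds, 2134 for Vtn, 937 for Col1a2, 850 for Slc6a20a, 834 for Fmod, 716 for Slc13a4, 696 for Slc6a13, 592 for Mgp, 470 for Aldh1a2, 437 for Ogn, 436 for Itih2, 405 for Bmp6, 340.0 for Ranbp3l and 215 for Bst2. It was also high for the list levels of meninges (9.70) and of interferon and antigen presentation genes (8.79), and for the number of genes at or above 1 CPM (16445).

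Mouse 4 was high for the nuclear copy Gm29216 (120308 normalized counts) and for mt-Nd3 (12110), and mouse 2 for the Y-linked Kdm5d (1846) and for Pde1b (4208). Mouse 1 was low for Clu (16897) and Ddc (1642), and mouse 5 for Slc32a1 (3009).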

How the results depend on the processing

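No paired analysis was possible because a single group was described and nothing was contrasted. The median corrected CV was 2.86% to 5.17% over all alternatives, and scaling by CPM or the upper quartile left 115 genes above 25%. That number was 1300 with a mean count of at least 10 (18965 genes), 9732 with no filter on low counts (35482 genes), and 64 to 132 leaving out a mouse, lowest without mouse 3; of the 15 most variable genes, 5 to 15 stayed among the 15. The SD of the meningeal list level was 0.17 to 0.78 leaving out a mouse, lowest without mouse 3. The 20 genes with most reads held 9.10% of reads, 7.04% without the mitochondrial genome, and the 20 highest per length held 7.23%; a ranking by CPM shared 11 of the latter 20.

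Of 12 pairs, 1 to 5 passed leaving out a mouse (6 with all), 1 with mice of 149 days and 0 without the 2 farthest mice (exact permutation; 3 at an unadjusted p under 0.05). With 5 or 6 mice the smallest possible p is larger, so a lost call alone does not show a weaker relation. Without the 2 farthest mice r itself fell for Gad1 with Slc32a1 (0.462), Hba-a1 with Hbb-bs (0.693) and Col1a1 with Col1a2 (0.771). It rose for Fos with Egr1 (0.966) and Pomc with Cartpt (0.964). Th with Slc18a2 was -0.171 to 0.569 leaving out a mouse (0.0621 without mouse 1) and 0.689 without the 2 farthest; Npy with Agrp was then -0.0148 and Pmch with Hcrt -0.0882. Read number limits the spread of genes under 300 counts most.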
